A study of Mus musculus with 12 samples.

Results

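The comparison set the duodenum of wild-type mice against their colon, across all genes measured. Members were chosen by array title: 3 arrays titled as wild-type small intestine and 3 titled as wild-type colon, 6 of the 12 arrays in the series. The study used Illumina mouse BeadChips, on which each probe reports 1 brightness, to ask what loss of Cftr, the apical chloride and bicarbonate channel of gut epithelium, does in both tissues. All mice were C57BL/6 and aged 3 months. The wild-type genotype is given as Apc+/+ Cftr+/+ with Villin-Cre, a recombinase transgene driven by the villin promoter in gut epithelium, although the growth protocol writes it without the Cre. The remaining 6 arrays came from Apc+/+ Cftrfl/fl Villin-Cre mice, 3 per tissue, and are used here as separate arrays of the same tissue contrast.

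The samples of the 2 tissues were prepared differently. By the series' design text, distal colon was reduced to its separated epithelium, whereas mid-duodenum was only sheared of villi, which left crypts together with stroma and the other cells of the wall. The labels are not uniform on this point: the cell type field names epithelium for both tissues, and the extraction protocol speaks of whole colon. Tissue region and preparation therefore changed together, and their parts in any difference cannot be told apart by this design. Nor can fewer cells of a type and less RNA per cell be told apart in bulk RNA. Nothing in the labels names the mouse behind each array, so a p-value here speaks of the spread from array to array, which may be technical.

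The duodenum is the proximal small bowel, where pancreatic and brush border enzymes finish digestion and enterocytes take up sugars, amino acids, fat, iron and vitamins. The colon absorbs salt and water, houses the bacteria that ferment fibre into short-chain fatty acids and carries a thick mucus layer made by goblet cells. Position along the gut is set in development by transcription factors such as Pdx1 and Gata4 in the front and Cdx and posterior Hox genes behind.

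The deposited values are log2 intensities that had already been normalized between arrays. The dimmest probes pile up at a floor near 7.70, so a probe counted as measured above 7.78, and differences of genes at the floor are understated. After dim probes were removed, 16358 features remained, of which 12400 carried a gene name. Array pairs within a tissue differed little: the SD of the difference over all features was 0.111 to 0.150 among the colon arrays and 0.103 to 0.216 among the duodenal arrays, against 0.640 to 0.662 between tissues. Duodenal array 2 stood apart from duodenal arrays 1 and 3 (SD 0.216 and 0.192, against 0.103 between those 2). It carried pancreatic digestive enzymes at high level, and results that rest on it are given array by array.

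Between the tissues, 2857 features were higher in the duodenum and 3738 were higher in the colon (17.5% and 22.9% of all features, 40.3% in either direction; limma, adjusted p under 0.05). Most of these differences were small, with a median of 0.41 among the duodenal calls and of -0.34 among the colonic calls on the log2 scale (duodenum minus colon throughout). All 3 duodenal arrays lay above all 3 colon arrays for 3710 features (22.7%), and the reverse held for 4977 (30.4%). The large differences leaned to the duodenum: 248 features were higher there by at least 2 and 103 were lower by at least 2, at 1 or more the counts were 616 and 396 (3.77% and 2.42% of all features), and at 5 or more the counts were 33 and 6. Of the 248, 63 belonged to lists of epithelial or regional genes, 26 to lists of muscle, stromal or immune genes, 64 were named genes on no list and 95 had no name. Of the 103, 40 were on epithelial or regional lists and 1 on a muscle, stromal or immune list. The split of calls depended on the scaling of the arrays. Duodenal calls made up 43.3% of all calls as deposited, 56.5% after each array was centred on the median of its bright features, and 94.4% after it was centred on 26 pan-epithelial genes, which moved every difference up by 0.44; against a minimum difference of 1, they made up 63.2%. That shift of 0.44 turns the sign of small colonic differences, and counts under it are given beside the lists whose lean it turns. Under it, 13768 of the 16358 features were called higher in the duodenum and 813 lower. A list's counts under it are to be read beside that background, since the shift lifts every gene alike.

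Fat absorption genes had the highest share of duodenal calls among the gene lists used here. Of 20 measured genes of chylomicron assembly and fat uptake, 19 were higher in the duodenum and none was lower, against 17.5% of all features higher, with a median difference of 2.61 beside -0.02 over all features. Apoa4, the apolipoprotein that enterocytes load onto chylomicrons, read 14.72, 14.62 and 14.64 on the duodenal arrays and 7.90, 7.78 and 7.74 on the colon arrays. All duodenal arrays lay far above all colon arrays, of which 2 were above the dim limit, and the difference was 6.85 ± 0.10 (SE; n = 3 and 3; limma adjusted p = 8.17e-12). Apoc3, a neighbouring apolipoprotein gene, read 13.57, 13.84 and 13.68 in the duodenum and 7.70, 7.71 and 7.69 in the colon. No colon array was above background, and the duodenal level was at least 60.5-fold higher (adjusted p = 6.83e-11). Mttp, which transfers lipid onto apolipoprotein B, differed by 3.68 ± 0.07, and Mogat2 and Dgat1, the acyltransferases that rebuild triglyceride in the enterocyte, by 3.98 ± 0.05 and 2.79 ± 0.09. The groups did not overlap for any of these. The exception was Plin2, a lipid droplet coat protein, with a difference of -0.06 ± 0.09 (adjusted p = 0.629).

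Brush border digestive enzymes followed the same direction. Of 19 measured, 17 were higher in the duodenum and 2 were lower, with a median difference of 2.56. Sis, the sucrase-isomaltase that splits sucrose and starch products, read 14.35, 14.54 and 14.24 in the duodenum and 8.54, 8.89 and 9.05 in the colon, a difference of 5.55 ± 0.20 (adjusted p = 7.43e-09). Lct, lactase, read 12.16, 12.05 and 11.88 against 7.78, 7.87 and 7.73. The duodenal arrays all lay above the colon arrays, of which 2 were above the dim limit, and the difference was 4.24 ± 0.10. Treh, which splits trehalose, differed by 4.74 ± 0.08, Anpep, aminopeptidase N, by 5.96 ± 0.27, and Ace, the angiotensin-converting dipeptidase of the brush border, by 4.64 ± 0.08. These are enzymes of mature enterocytes, and they were bright on all duodenal arrays although the villi had been sheared off by protocol. The 2 members higher in the colon were Mep1a, a subunit of the protease meprin (difference -1.04 ± 0.06, adjusted p = 3.95e-07), and Nt5e, the ecto-nucleotidase CD73 (difference -0.94 ± 0.20, adjusted p = 0.00293).

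The windows before the annotated starts of 4 duodenal genes are shown because each carries letters known as the core of an intestinal or hepatic factor's motif. The sequences are from RefSeq on GRCm38.p6, 250 bases upstream of the start, 5′ to 3′ on the gene's strand, with motif matches on either strand in capitals. The capitals mark TTTATNG (the CDX motif) in Sis, at chr3:72967864-72968113 on the minus strand, AGATAA (the GATA motif) in Lct, at chr1:128328319-128328568 on the minus strand, and CAAAGTCCA (the HNF4 motif) in Treh, at chr9:44672983-44673232 on the plus strand, and in Cyp3a11, at chr5:145879855-145880104 on the minus strand. No match overlaps another.
Sis: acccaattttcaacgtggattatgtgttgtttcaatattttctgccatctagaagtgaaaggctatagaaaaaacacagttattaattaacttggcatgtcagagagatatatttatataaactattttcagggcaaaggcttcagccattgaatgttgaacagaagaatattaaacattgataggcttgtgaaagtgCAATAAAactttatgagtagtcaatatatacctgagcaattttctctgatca
Lct: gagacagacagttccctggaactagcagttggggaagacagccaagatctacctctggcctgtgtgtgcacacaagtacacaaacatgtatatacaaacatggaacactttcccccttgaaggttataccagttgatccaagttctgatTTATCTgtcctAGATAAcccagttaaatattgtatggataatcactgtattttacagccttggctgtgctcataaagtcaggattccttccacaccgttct
Treh: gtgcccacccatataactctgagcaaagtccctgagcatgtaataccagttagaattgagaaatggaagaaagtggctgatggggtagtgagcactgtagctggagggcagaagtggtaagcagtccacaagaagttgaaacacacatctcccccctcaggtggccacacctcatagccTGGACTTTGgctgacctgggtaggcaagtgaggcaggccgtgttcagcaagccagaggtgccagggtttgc
Cyp3a11: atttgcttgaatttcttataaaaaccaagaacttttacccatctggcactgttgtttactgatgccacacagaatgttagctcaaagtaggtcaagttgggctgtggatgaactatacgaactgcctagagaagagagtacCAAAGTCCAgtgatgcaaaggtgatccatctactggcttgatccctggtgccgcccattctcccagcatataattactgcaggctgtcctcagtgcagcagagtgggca
The CDX match of Sis begins 52 bases before the start, the GATA matches of Lct begin 101 and 90 bases before it, and the HNF4 matches of Treh and Cyp3a11 begin 71 and 109 bases before it. The HNF4 letters stood before 3 of the 122 genes with a window that were higher in the duodenum by at least 2 (2.46%). They stood before 0 of the 71 that were lower by at least 2. Their shares were 0.560% of the 9997 measured genes with a window and 0.451% of all 27025 genes with a window. These matches are too few to compare the groups. The CDX letters stood before 19.7% of the 122, 14.1% of the 71, 8.42% of the measured genes and 11.3% of all genes. For the GATA letters these shares were 11.5%, 11.3%, 7.94% and 11.4%. A match describes letters in a window and was not tested as a site. On the other strand the CDX letters read CNATAAA, so their shares also count windows with CTATAAA, which holds the letters of a TATA box (TATAAA).

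Nutrient carriers were mostly duodenal. Of 15 sugar uptake and fructose genes, 13 were higher in the duodenum and 1 was lower (median 1.58), and of 13 amino acid and peptide carriers, 10 were higher and none lower (median 0.86). Slc5a1, the sodium-coupled glucose carrier of the brush border, read 12.15, 12.72 and 12.21 in the duodenum and 9.37, 9.37 and 9.39 in the colon, a difference of 2.99 ± 0.15 (adjusted p = 1.06e-07). Slc2a2, the basolateral glucose exit GLUT2, was not above background on any colon array and was at least 9.77-fold higher in the duodenum (adjusted p = 6.03e-08). Khk, the ketohexokinase that commits fructose to metabolism, differed by 3.57 ± 0.08. The member higher in the colon was Slc2a1, the glucose carrier GLUT1, at a mean of 9.02 ± 0.04 (SD, n = 3) in the duodenum and 10.97, 11.08 and 11.06 in the colon (difference -2.02 ± 0.07, adjusted p = 8.14e-09). Slc6a19, the brush border carrier of neutral amino acids, differed by 3.33 ± 0.12, and Slc7a9, a subunit of the cystine and dibasic amino acid exchanger, by 2.98 ± 0.10. Slc15a1, the peptide carrier PEPT1, differed less, by 0.89 ± 0.15 (adjusted p = 0.00089).

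Iron and vitamin genes did not move as a block: of 19 measured, 7 were higher in the duodenum and 4 in the colon, with a median of -0.00 as deposited and of 0.44 after centring on pan-epithelial genes. Slc46a1, the proton-coupled folate carrier of the proximal gut, differed by 2.41 ± 0.17. Slc11a2, the apical iron importer DMT1, read 9.39, 10.37 and 9.40 in the duodenum and 8.39, 8.45 and 8.62 in the colon, with duodenal array 2 the highest (difference 1.23 ± 0.23, adjusted p = 0.0015). Slc40a1, the basolateral iron exporter ferroportin, ran the other way, at 9.77, 10.64 and 9.72 in the duodenum and 12.26, 12.64 and 12.49 in the colon. Every colon array exceeded every duodenal array, with a difference of -2.42 ± 0.26 (adjusted p = 3.12e-05).

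Detoxification genes were divided between the tissues. Of 33 measured xenobiotic genes, 19 were higher in the duodenum and 7 in the colon, with a median of 0.74. On the duodenal side, Cyp2b10, a cytochrome P450 induced through the receptor encoded by Nr1i3, was at least 24.7-fold higher (adjusted p = 2.7e-10), and Cyp3a11, the main drug-oxidizing P450 of the mouse gut, at least 15.8-fold (adjusted p = 9.57e-06). Neither was above background on a colon array. The glutathione transferases Gsta1 and Gsta2 differed by 3.76 ± 0.18 and 3.87 ± 0.23, but their sequences are close and probes may read both. On the colonic side, Sult1a1, a phenol sulfotransferase, read 8.42, 8.34 and 8.39 in the duodenum and 12.89, 12.82 and 13.27 in the colon. The groups stood far apart, with a difference of -4.61 ± 0.18 (adjusted p = 1.23e-08). Sult1c2, a related sulfotransferase, and Cyp2c55, an arachidonate-metabolizing P450 of the mouse colon, differed by -2.79 ± 0.09 and -3.01 ± 0.41. Of 16 retinoid genes, 11 were higher in the duodenum and none was lower (median 0.61); on the mutant arrays 6 were higher and none lower (median 0.08). The change between genotypes was tested only gene by gene, as given with the mutant arrays. Its largest wild-type difference was that of Rbp2, the retinol carrier of enterocytes, at 13.78, 13.93 and 13.73 against 8.54, 8.76 and 8.54 (difference 5.20 ± 0.10, adjusted p = 5.76e-11).

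**Figure D1:**
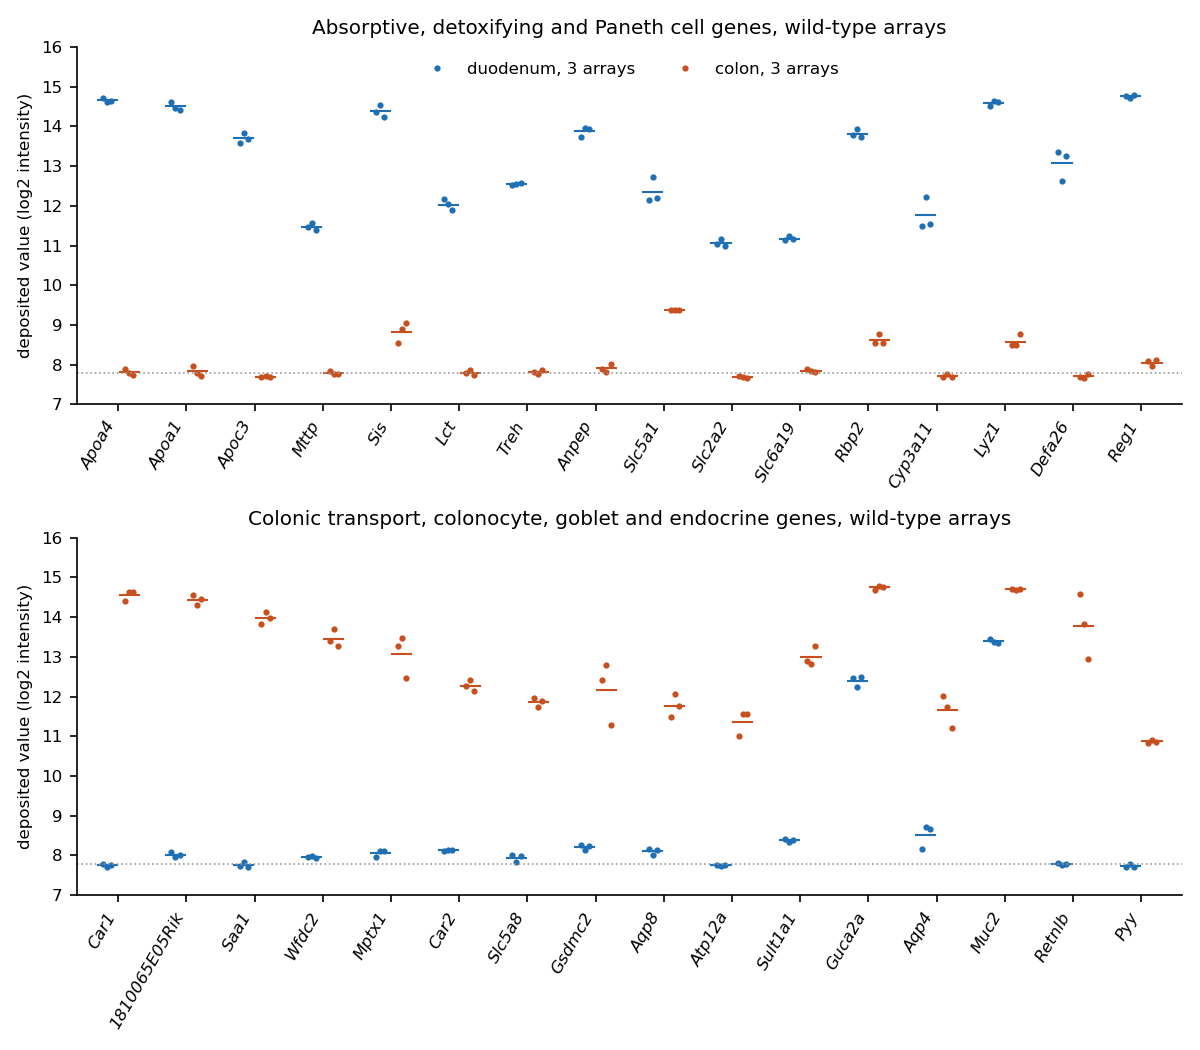
Deposited log2 intensity of 16 genes typical of the duodenum (upper panel) and 16 typical of the colon (lower panel) on each wild-type array; points are arrays, short lines are means of 3 and the dotted line is the dim limit of 7.78. Apoa4 sits at 14.62 to 14.72 on the duodenal arrays and at 7.74 to 7.90 on the colon arrays, and Car1 at 7.72 to 7.78 and 14.41 to 14.62.

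The colon's most distinct gene was Car1, a carbonic anhydrase of colonocytes. It read 7.78, 7.72 and 7.75 in the duodenum, where 1 of 3 arrays was above the dim limit, and 14.41, 14.62 and 14.62 in the colon. The difference of -6.81 ± 0.07 (adjusted p = 1.42e-12) was the largest toward the colon among named genes whose groups did not overlap. Of 25 colonocyte markers, 19 were higher in the colon and 4 in the duodenum (median -1.58, and -1.14 after centring on pan-epithelial genes). Saa1, a member of that list and an acute-phase serum amyloid also made by colon epithelium, differed by -6.23 ± 0.16. Some genes outside that list also differed strongly. 1810065E05Rik, an uncharacterized gene with this label, differed by -6.42 ± 0.10, and Ethe1, the mitochondrial dioxygenase that clears sulfide, by -3.91 ± 0.05. Gsdmc2, a gasdermin also outside that list, read 12.41, 12.79 and 11.28 in the colon, where array 3 was lowest, and 8.25, 8.15 and 8.23 in the duodenum (difference -3.95 ± 0.53, adjusted p = 0.000155).

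Salt, water and acid-base genes leaned to the colon: of 40 measured, 24 were higher there and 7 in the duodenum (median -0.31), a lean that centring on pan-epithelial genes removed (17 and 17, median 0.13). Aqp8, a water channel of surface colonocytes, read 8.16, 8.01 and 8.13 in the duodenum and 11.49, 12.05 and 11.76 in the colon. Every colon array exceeded every duodenal array, and the difference was -3.67 ± 0.20 (adjusted p = 1.74e-07). Atp12a, the colonic proton and potassium pump, was not above background in the duodenum and was at least 12.1-fold higher in the colon (adjusted p = 4.69e-08). Hsd11b2, which inactivates glucocorticoids and so keeps the mineralocorticoid receptor free for aldosterone, differed by -2.54 ± 0.08. Of the 3 subunits of the epithelial sodium channel, a target of aldosterone, Scnn1a differed by -1.50 ± 0.09, and Scnn1b was at least 1.86-fold higher in the colon. Scnn1g was at least 1.02-fold higher there (adjusted p = 0.00746), close to the floor in both tissues, and turned in sign after that centring. The guanylin peptides, which act on guanylate cyclase C to drive chloride and bicarbonate secretion, divided between the tissues. Guca2a, guanylin, read 12.48, 12.23 and 12.49 in the duodenum and 14.70, 14.79 and 14.76 in the colon, and Guca2b, uroguanylin, read 14.24, 14.64 and 14.52 in the duodenum and 10.43, 10.53 and 10.36 in the colon. Neither pair of groups overlapped, and the differences were -2.35 ± 0.09 and 4.03 ± 0.18 (adjusted p = 1.11e-08 and 4.4e-08). The apical anion exchangers divided in the same manner, with Slc26a6 higher in the duodenum by 3.86 ± 0.14 and Slc26a3 higher in the colon (difference -1.66 ± 0.13). Cftr itself read 8.28, 8.20 and 8.20 in the duodenum and 8.13, 7.95 and 7.97 in the colon. The duodenal arrays were all higher, but the difference of 0.21 ± 0.08 did not pass (adjusted p = 0.0624).

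Colonic upstream windows are shown for 2 of these genes, 1810065E05Rik at chr11:58420861-58421110 and Guca2a at chr4:119637482-119637731, both on the plus strand of GRCm38.p6 and from RefSeq, 250 bases before the start. Capitals mark the CDX letters in the former and the GATA letters in the latter.
1810065E05Rik: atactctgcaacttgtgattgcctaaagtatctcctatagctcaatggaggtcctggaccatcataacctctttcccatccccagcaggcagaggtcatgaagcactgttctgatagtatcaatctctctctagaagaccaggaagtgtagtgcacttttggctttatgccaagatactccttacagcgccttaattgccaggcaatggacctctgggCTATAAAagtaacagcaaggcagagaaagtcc
Guca2a: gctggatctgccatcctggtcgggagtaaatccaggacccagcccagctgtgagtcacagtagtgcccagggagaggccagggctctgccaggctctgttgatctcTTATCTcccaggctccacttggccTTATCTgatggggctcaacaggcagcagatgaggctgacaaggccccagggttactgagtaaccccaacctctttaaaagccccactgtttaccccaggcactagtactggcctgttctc
The CDX match begins 32 bases before the start of 1810065E05Rik, and the GATA matches begin 144 and 120 bases before that of Guca2a. The same letters therefore stand before genes of either tissue, as in Sis and Lct. The match of 1810065E05Rik reads CTATAAA, which also holds TATAAA, the letters of a TATA box, a general promoter element. The letters alone do not tell these readings apart.

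Other carbonic anhydrases and short-chain fatty acid genes were mixed. Of 12 carbonic anhydrases, 5 were higher in the colon and 3 in the duodenum (median 0.00), a lean that turned after centring on pan-epithelial genes (4 and 8, median 0.44). Among the colonic ones Car2, a cytosolic form, differed by -4.15 ± 0.13 and Car4, a membrane-anchored form, by -1.11 ± 0.22. Of 18 genes of short-chain fatty acid uptake and use, 7 were higher in the colon and 1 in the duodenum (median -0.08, turning to 0.36 after centring on pan-epithelial genes, with 5 and 10). Under that centring, most features on the arrays were higher in the duodenum (13768 of 16358). Slc5a8, a sodium-coupled carrier of butyrate, averaged 7.94 ± 0.10 (SD, n = 3) in the duodenum and read 11.98, 11.75 and 11.90 in the colon. The groups stood apart with a difference of -3.94 ± 0.27 (adjusted p = 1.01e-06). Acsm3, a medium-chain acyl-CoA synthetase, differed by -3.06 ± 0.10, Acads, which dehydrogenates butyryl-CoA, by -1.68 ± 0.08, and Ffar2, a receptor for short-chain fatty acids, by -1.90 ± 0.11.

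Mucus genes were higher in the colon. Of 34 goblet cell genes, 25 were higher there and 2 in the duodenum (median -0.65), and after centring on pan-epithelial genes 17 and 11 (median -0.21). Muc2, the gel-forming mucin of the gut, read 13.45, 13.36 and 13.35 in the duodenum and 14.72, 14.69 and 14.70 in the colon, a difference of -1.31 ± 0.05 (adjusted p = 1.17e-08) with every colon array higher. Wfdc2, a secreted protease inhibitor, and Mptx1, a mucosal pentraxin, differed by -5.51 ± 0.11 and -5.01 ± 0.23. Retnlb, the goblet cell resistin-like protein, read 7.80, 7.77 and 7.79 in the duodenum and 14.57, 13.83 and 12.95 in the colon. Its colon arrays spread over more than 1 unit but stayed far above the duodenal arrays, of which 2 were above the dim limit (difference -5.99 ± 0.45, adjusted p = 1.97e-06). Of 32 enzymes that build mucin sugars, 21 were higher in the colon and 5 in the duodenum (median -0.48; 15 and 12 after centring on pan-epithelial genes). Fut2, the fucosyltransferase of secretor antigens, differed by -2.68 ± 0.16, B3galt5 and B3gnt7, which extend sugar chains, by -2.99 ± 0.23 and -2.36 ± 0.18, and St6galnac6, a sialyltransferase, was at least 7.66-fold higher in the colon (adjusted p = 8.96e-10). The sialyltransferase St3gal4 and the sulfotransferase Gal3st2 ran the other way, by 1.83 ± 0.18 and 1.56 ± 0.13.

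Paneth cells, the granule-filled crypt cells of the small intestine, marked the duodenal arrays. Of 18 measured Paneth genes, 14 were higher in the duodenum and 2 in the colon (median 1.92). The list also holds Guca2b, described above, and shares Pnliprp2 and Clps with the pancreatic acinar list described further on. Lyz1, the Paneth lysozyme, read 14.52, 14.65 and 14.60 in the duodenum and 8.48, 8.48 and 8.77 in the colon, a difference of 6.01 ± 0.59 (adjusted p = 1.55e-05). The SE is wide beside these readings because the fit also takes in the mutant arrays. Defa39 and Defa26, alpha-defensins, were not above background on any colon array and were at least 66.7-fold and 39.6-fold higher in the duodenum (adjusted p = 5.33e-10 and 4.38e-06). The alpha-defensins are near-identical copies, so probes may read several of them. Defa20 read 14.59, 14.62 and 14.61 in the duodenum and 8.32, 7.74 and 7.66 in the colon, where array 1 alone was above the dim limit. Itln1, an intelectin, read 9.44, 8.86 and 7.83 in the colon and 13.33, 12.68 and 13.20 in the duodenum, so colon array 3 was the lowest. Ang4, an angiogenin of Paneth and goblet cells, did not differ beyond its spread, at 13.14, 12.37 and 12.88 in the duodenum and 13.65, 13.60 and 10.59 in the colon (adjusted p = 0.888). The 2 Paneth-list genes higher in the colon included Nupr1, a stress-response regulator (difference -3.83 ± 0.18). The Reg lectins were not of one kind: Reg1 differed by 6.70 ± 0.07 (adjusted p = 1.44e-12) and Reg3a by 5.10 ± 0.13, whereas Reg3b read 14.15, 13.54 and 14.10 in the duodenum and 14.18, 10.95 and 14.42 in the colon. Colon array 2 was thus low for Reg3b, and the difference of 0.75 ± 0.72 did not pass (adjusted p = 0.465).

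Of 28 measured enteroendocrine genes, 9 were higher in the duodenum and 5 in the colon (median 0.06). These are 32.1% and 17.9%, beside 17.5% and 22.9% of all features. Hormones higher in the duodenum included Ghrl, ghrelin (at least 3.87-fold higher, adjusted p = 2.74e-09), Cck, cholecystokinin (difference 1.61 ± 0.05), Sst, somatostatin (1.56 ± 0.08), and Gip, the glucose-dependent insulinotropic peptide (1.05 ± 0.06). Hormones higher in the colon included Pyy, peptide YY, at 7.72, 7.78 and 7.71 in the duodenum and 10.84, 10.91 and 10.86 in the colon (difference -3.13 ± 0.07, adjusted p = 1.77e-10), Insl5, insulin-like peptide 5, at least 4.86-fold higher in the colon, and Gcg, the source of glucagon-like peptides (difference -1.36 ± 0.12). Sct, secretin, read 11.34, 11.71 and 11.45 in the duodenum and 11.41, 11.17 and 11.89 in the colon. Its groups overlapped, with a difference of 0.01 ± 0.21 (adjusted p = 0.975).

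Of 22 stem cell genes, 3 were higher in the duodenum and 8 in the colon (median -0.09). These are 13.6% and 36.4%, beside 17.5% and 22.9% of all features. After centring on pan-epithelial genes the counts were 16 and 4. Olfm4, a secreted marker of small intestinal stem cells, was not above background on any colon array and was at least 10.7-fold higher in the duodenum (adjusted p = 1.66e-08). Lgr5, the R-spondin receptor of crypt base stem cells, lay close to the floor in both tissues, at 7.88, 7.91 and 7.90 and at 7.98, 7.89 and 8.10 (difference -0.09 ± 0.06, adjusted p = 0.241), as did Ascl2, a transcription factor of the same cells (adjusted p = 0.0961). Sox9, a crypt transcription factor, was higher in the colon, with a difference of -1.48 ± 0.09. Of 22 proliferation genes, 4 were higher in the duodenum and 1 in the colon (18.2% and 4.55%, median 0.10). The duodenal share was thus near that of all features. Of 17 tuft cell markers the counts were 4 and 2 (23.5% and 11.8%, median 0.01).

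**Figure D2:**
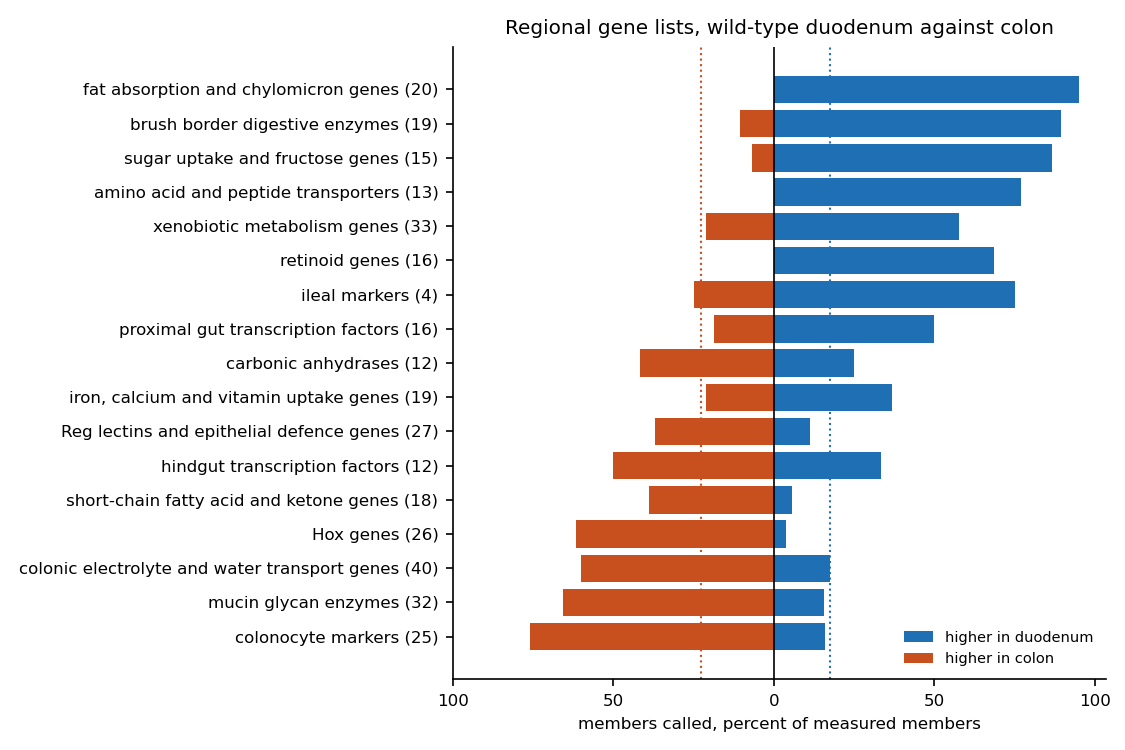
Share of measured members of each regional gene list called higher in the duodenum (bars to the right) or in the colon (bars to the left), in percent, with the number measured in brackets; dotted lines mark 17.5% and 22.9%, the shares over all features. Fat absorption genes stand at 19 of 20 to the right, and Hox genes at 16 of 26 to the left. The Hox lean turned after centring on pan-epithelial genes, which moves every difference up by 0.44.

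Among transcription factors of the proximal gut, 8 of 16 measured were higher in the duodenum and 3 in the colon (median 0.31). Creb3l3, a membrane-bound factor that drives apolipoprotein genes, read 10.29, 10.36 and 10.33 in the duodenum and 7.80, 7.89 and 7.78 in the colon (difference 2.50 ± 0.07, adjusted p = 9.87e-10). Nr1i3, the nuclear receptor CAR, differed by 1.99 ± 0.09, and Onecut2, a homeodomain factor, by 2.65 ± 0.10. Pdx1, the homeobox factor of duodenum and pancreas, read 8.28, 8.99 and 8.23 in the duodenum, where array 2 was the highest, and 7.75, 7.79 and 7.74 in the colon (difference 0.74 ± 0.18, adjusted p = 0.00671). The zinc finger factors Gata4, which keeps proximal identity in the mouse small intestine, Gata5 and Gata6 were all higher in the duodenum: Gata4 and Gata6 differed by 0.41 ± 0.03 and 0.69 ± 0.04, and Gata5 was at least 1.57-fold higher. Of the paralogous nuclear receptors, Hnf4g was at least 1.28-fold higher in the duodenum (adjusted p = 3.22e-05), whereas Hnf4a read 11.41, 11.49 and 11.33 in the duodenum and 11.58, 11.33 and 11.34 in the colon. Hnf4a overlapped between the tissues, with a difference of -0.01 ± 0.11 (adjusted p = 0.96). Klf4, a factor of differentiated surface and goblet cells, and Nr1h4, the bile acid receptor FXR, were higher in the colon, by -1.16 ± 0.11 and -1.51 ± 0.11 as differences.

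The caudal homeobox genes, which specify intestinal and above all hindgut epithelium, were present in both tissues and higher in the colon as deposited. Cdx2 read 11.74, 11.65 and 11.75 in the duodenum and 12.29, 12.11 and 12.54 in the colon, without overlap (difference -0.60 ± 0.13, adjusted p = 0.00302), and Cdx1 differed by -1.29 ± 0.07 (adjusted p = 2.71e-07). Centring on pan-epithelial genes, which moves every difference up by 0.44, takes up most of the Cdx2 difference and leaves a remainder close to its SE. Of the 12 measured factors on the hindgut list, 6 were higher in the colon and 4 in the duodenum (median -0.06), a lean that turned after centring on pan-epithelial genes (2 and 8, median 0.38). Most features were higher in the duodenum under that centring (13768 of 16358). The 4 duodenal ones were Nkx2-3, Tbx3, Meis1 and Meis2, with differences of 2.40 ± 0.09, 1.42 ± 0.13, 0.56 ± 0.04 and 0.78 ± 0.06. Nkx2-3 is known from gut mesenchyme. These 4 moved with the muscle and stromal lists described further on, whose part in their difference was not tested.

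Hox genes, which encode position along the body axis by their place in 4 clusters, were higher in the colon. Of 39 genes on the list 26 were measured, 16 were higher in the colon and 1 in the duodenum as deposited (median -0.20), a lean that turned after centring on pan-epithelial genes (5 and 15, median 0.24). That centring moved all features alike, and 13768 of 16358 were then higher in the duodenum and 813 lower. The turn is therefore not particular to Hox genes. Hoxb7 read 8.17, 8.02 and 8.11 in the duodenum and 10.70, 10.43 and 10.74 in the colon, a difference of -2.52 ± 0.10 (adjusted p = 2.3e-08). Hoxa7 read 7.79, 7.84 and 7.87 against 9.75, 9.59 and 9.51 (difference -1.78 ± 0.09, adjusted p = 1.11e-07). Both stood clear of overlap by more than 1 unit. Hoxb5 and Hoxb4 differed by -0.97 ± 0.10 and -0.87 ± 0.09, and Hoxb6, not above background in the duodenum, was at least 1.95-fold higher in the colon. Of the most posterior genes measured, Hoxd13 was at least 1.21-fold higher in the colon and Hoxa13 differed by -0.26 ± 0.04 (adjusted p = 0.000368), both near the floor where differences are understated, and both turned in sign after centring on pan-epithelial genes. The gene higher in the duodenum was Hoxc6, at 8.17, 7.88 and 8.20 against 7.74, 7.67 and 7.74 (at least 1.24-fold, adjusted p = 0.00544). Genes with low paralogue numbers did not pass in part: Hoxb2 and Hoxa4 differed by 0.11 ± 0.04 and 0.10 ± 0.04 (adjusted p = 0.0577 and 0.0887).

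**Figure D3:**
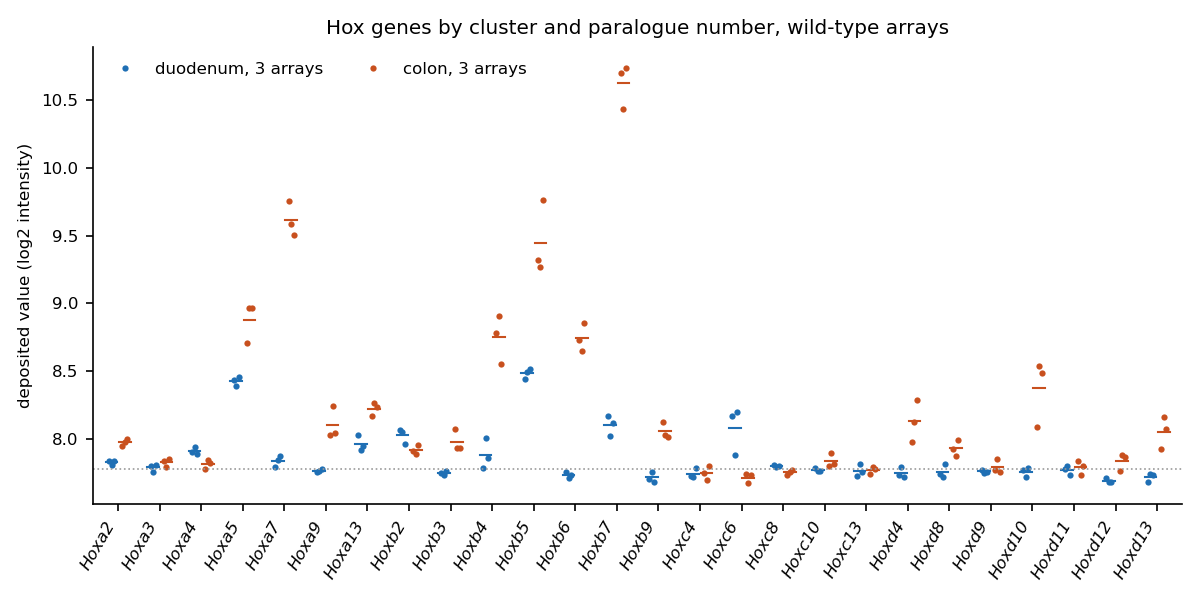
Deposited log2 intensity of the 26 measured Hox genes on the 3 duodenal and 3 colon arrays of wild-type mice, ordered by cluster and paralogue number; points are arrays, short lines are means and the dotted line is the dim limit of 7.78. The groups of Hoxb7 and Hoxa7 do not overlap, and most posterior genes lie near the limit in both tissues; values are as deposited, before the centring that turned the Hox lean.

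General epithelial genes did not read equally in the tissues: of 26, 18 were higher in the colon and 2 in the duodenum (median -0.48; 12 and 6 when the arrays were centred on these very genes). Their mean per array was 10.48 to 10.50 in the duodenum and 10.92 to 10.94 in the colon. Krt19 and Krt18, keratins of simple epithelium, differed by -0.93 ± 0.11 and -1.01 ± 0.12, Krt8 by -0.36 ± 0.06 and Cdh1, E-cadherin, by -0.44 ± 0.09 (the latter pair turning in sign after that centring), while Vil1, villin of the microvillus core, was higher in the duodenum by 0.98 ± 0.09. The probe for Epcam, an epithelial adhesion molecule, was at the floor in both tissues (7.75 to 7.81).

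Genes of muscle, stroma and immune cells were mostly higher on the duodenal arrays. Of 32 smooth muscle contractile genes, 26 were higher in the duodenum and 3 in the colon, with a median of 0.96, and the list's mean was 9.89 to 9.94 on the duodenal arrays and 8.51 to 8.58 on the colon arrays. Acta2, smooth muscle alpha-actin, read 13.38, 13.37 and 13.39 in the duodenum and 7.90, 7.93 and 8.55 in the colon, a difference of 5.25 ± 0.18 (adjusted p = 5.72e-09) with colon array 3 the highest of the colon arrays. Actg2, enteric gamma-actin, differed by 4.33 ± 0.13 and Des, the intermediate filament desmin, by 3.20 ± 0.04. Myl9 and Myh11, light and heavy chains of smooth muscle myosin, were not above background on any colon array and were at least 8.72-fold and 6.11-fold higher in the duodenum (adjusted p = 4.06e-12 and 2.54e-09). Tagln, transgelin, was at least 1.51-fold higher. On the colon arrays, 8 of the 32 genes were above the dim limit on no array and 16 were above it on every array.

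Myl9 is shown because its upstream window holds a CArG box, the element bound by SRF in muscle genes. The window lies at chr2:156775214-156775463 on the plus strand of GRCm38.p6, from RefSeq, with the box in capitals.
Myl9: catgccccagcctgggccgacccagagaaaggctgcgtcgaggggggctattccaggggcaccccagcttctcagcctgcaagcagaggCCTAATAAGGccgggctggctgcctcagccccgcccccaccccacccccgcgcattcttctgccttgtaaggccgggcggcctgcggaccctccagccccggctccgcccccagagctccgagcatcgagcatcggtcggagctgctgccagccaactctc
The box begins 161 bases before the start. It stood before 11.1% of the 27 smooth muscle genes with a window, 3 in number, before 1.59% of the measured genes and before 1.62% of all genes with a window. The letters were not tested as a site, and the element also works from introns and more distant positions that were not searched.

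Of 41 fibroblast and matrix genes, 32 were higher in the duodenum and 1 in the colon (median 0.64). Bgn and Dcn, small proteoglycans of the matrix, differed by 3.54 ± 0.09 and 2.49 ± 0.47, Fbln1, fibulin, by 3.22 ± 0.12, and Col6a1, a collagen chain, by 2.66 ± 0.19, while Col1a1 was at least 1.45-fold higher. The member higher in the colon was Gsn, gelsolin, an actin-severing protein also made by epithelium, at 7.86, 7.87 and 7.88 against 8.97, 9.14 and 8.70 (difference -1.06 ± 0.08, adjusted p = 3e-06). Among 26 mesenchymal niche signals, 14 were higher in the duodenum and 3 in the colon (median 0.11). Bmp4, which restrains crypt proliferation, differed by 1.10 ± 0.08, and Dkk3, a secreted Dickkopf relative, was at least 2.57-fold higher in the duodenum. Ihh, the hedgehog ligand sent by epithelium to that mesenchyme, was higher in the colon (difference -0.66 ± 0.06, adjusted p = 9.72e-06). Of 24 endothelial genes, 19 were higher in the duodenum and 1 in the colon (median 0.45), led by Plvap, of fenestrated capillaries, at 10.61, 10.19 and 10.65 against 7.71, 7.78 and 7.74 (difference 2.73 ± 0.10). Of 24 neural and glial genes, 11 were higher in the duodenum and 1 in the colon (median 0.07). Vip, vasoactive intestinal peptide of enteric neurons, was at least 2.03-fold higher in the duodenum, whereas Kit, the receptor of pacemaker and mast cells and also of some colonic goblet cells, was the neural-list member higher in the colon, at 8.63, 8.58 and 8.69 against 9.99, 9.91 and 10.56 (difference -1.52 ± 0.18, adjusted p = 6e-05).

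Immune genes followed. Of 21 macrophage and dendritic cell markers, 18 were higher in the duodenum and 1 in the colon (median 0.63), and of 11 MHC class II genes 8 were higher and none lower (median 0.97). Cd74, the class II invariant chain, read 12.81, 12.51 and 12.69 in the duodenum and 8.88, 8.66 and 9.29 in the colon. The groups stood well apart, with a difference of 3.73 ± 0.33 (adjusted p = 7.17e-06). H2-Ab1, a class II beta chain, differed by 3.28 ± 0.30, Lyz2, the myeloid lysozyme, by 1.83 ± 0.15, and C1qb, a complement chain made by macrophages, was at least 3.78-fold higher. Cd14, the lipopolysaccharide co-receptor, was the exception, higher in the colon (difference -1.27 ± 0.11, adjusted p = 8e-06). Of 14 B and plasma cell genes, 7 were higher in the duodenum and 1 in the colon (median 0.19), and of 27 T cell and intraepithelial lymphocyte genes 9 and 1 (median 0.06). Cd3e, a T cell receptor chain, was higher in the duodenum by 0.38 ± 0.10 (adjusted p = 0.0121), and Itgae, the integrin that holds lymphocytes to epithelium, by 0.86 ± 0.10. Prf1, perforin, was higher in the colon (difference -1.48 ± 0.17, adjusted p = 5.55e-05).

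Pancreatic and fat tissue genes moved with single arrays. Of 26 pancreatic acinar genes, 5 were higher in the duodenum and 1 in the colon (19.2% and 3.85%, beside 17.5% and 22.9% of all features). The list's mean was 11.15 on duodenal array 2 and 8.79 on duodenal arrays 1 and 3, against 8.76 to 8.87 on the colon arrays. Amy2a5, pancreatic amylase, read 8.23, 14.90 and 8.12 in the duodenum and 7.71, 7.74 and 7.74 in the colon (adjusted p = 0.313), and Cela2a, an elastase, read 7.79, 13.85 and 7.80 against 7.72 to 7.74 (adjusted p = 0.361). Only duodenal array 2 was high for these 2 genes, and neither difference passed. Rnase1, a ribonuclease on the same list, was higher on every duodenal array, at 10.59, 11.95 and 10.66 against 7.84, 7.89 and 7.87 (difference 3.20 ± 0.37, adjusted p = 5.52e-05). Sycn, syncollin of zymogen granules, was the acinar gene higher in the colon, at 13.17, 13.74 and 13.53 against 7.90, 10.30 and 7.94, with duodenal array 2 again above the other two. The adipokine gene Adipoq read 9.39, 8.32 and 9.27 in the duodenum, where array 2 was lowest, and was at least 2.32-fold higher than in the colon (adjusted p = 0.00123). The haemoglobin gene Hbb-bs read 12.31, 10.39 and 12.17 in the duodenum and 10.88, 11.47 and 11.97 in the colon, with overlap (adjusted p = 0.86). Without duodenal array 2, the numbers of features called higher and lower were 2561 and 3167.

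**Figure D4:**
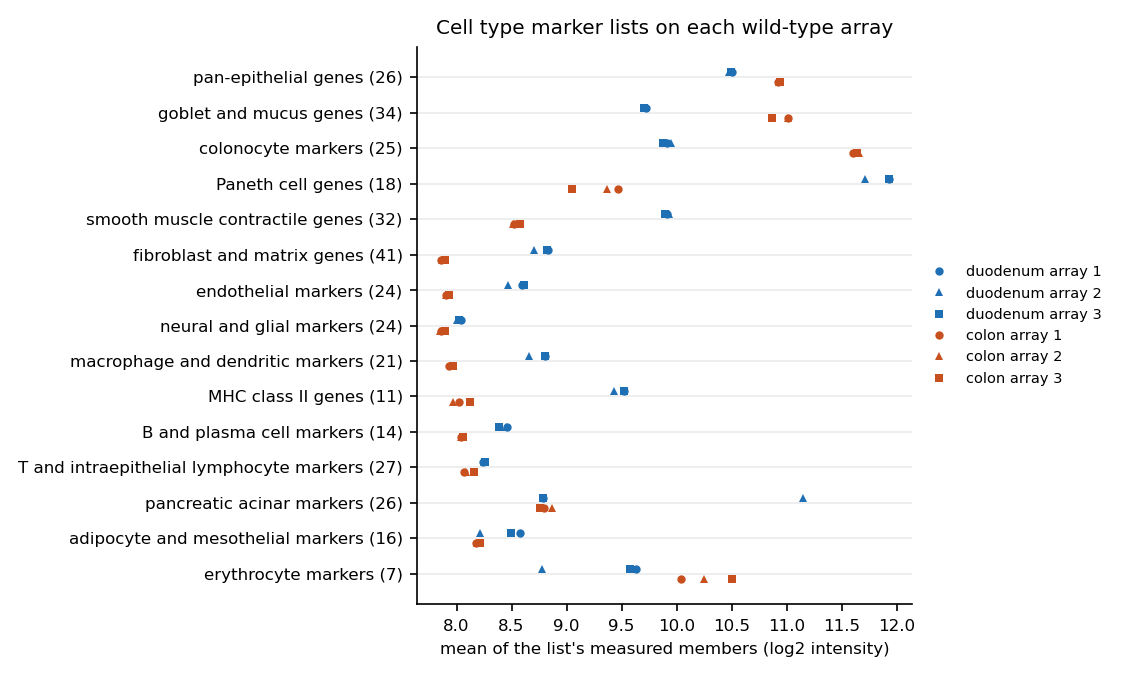
Mean log2 intensity of the measured members of 15 cell type marker lists on each wild-type array, with the number of members in brackets; symbols mark arrays 1, 2 and 3 of each tissue. Smooth muscle genes average 9.89 to 9.94 in the duodenum and 8.51 to 8.58 in the colon, and pancreatic acinar genes reach 11.15 on duodenal array 2 alone. The erythrocyte list includes Car1, a gene of colonocytes that raises its mean on the colon arrays.

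The 6 arrays of Cftr mutant mice gave a tissue contrast of their own. Its level values come from other arrays than the wild-type ones, but the fit over all 12 arrays shares 1 estimate of the spread. In that fit, 2767 features were higher in the duodenum and 3518 in the colon (16.9% and 21.5%, and 38.4% in either direction). When each genotype was fitted alone, with no array in common, 2036 features were called higher in both, 69.1% of the 2947 wild-type calls and 86.1% of the 2364 mutant calls, and 2639 were called lower in both, 71.0% of 3715 and 87.6% of 3012. None was called in opposite directions. The difference in the mutant was 6.70 for Apoa4, 5.62 for Sis, -6.75 for Car1, -2.61 for Hoxb7 and 5.04 for Acta2, beside 6.85, 5.55, -6.81, -2.52 and 5.25 in the wild type. The difference between the 2 contrasts passed for 0 of 16358 features (limma, smallest adjusted p = 0.171; 969 at an unadjusted p under 0.05). Without duodenal wild-type array 2 it passed for 36 features, and without duodenal mutant arrays 1, 2 or 3 or colon mutant array 1 for 19, 13, 8 and 5. The widest gaps among genes described above were for Retnlb (-5.99 in the wild type and -3.98 in the mutant), Gsdmc2 (-3.95 and -2.08), Defa20 (6.70 and 4.84) and Amy2a5 (2.69 and 4.42), and none of them passed the test of the gap. Amy2a5 is on the acinar list, whose mean varied widely between duodenal arrays in both genotypes.

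**Figure D5:**
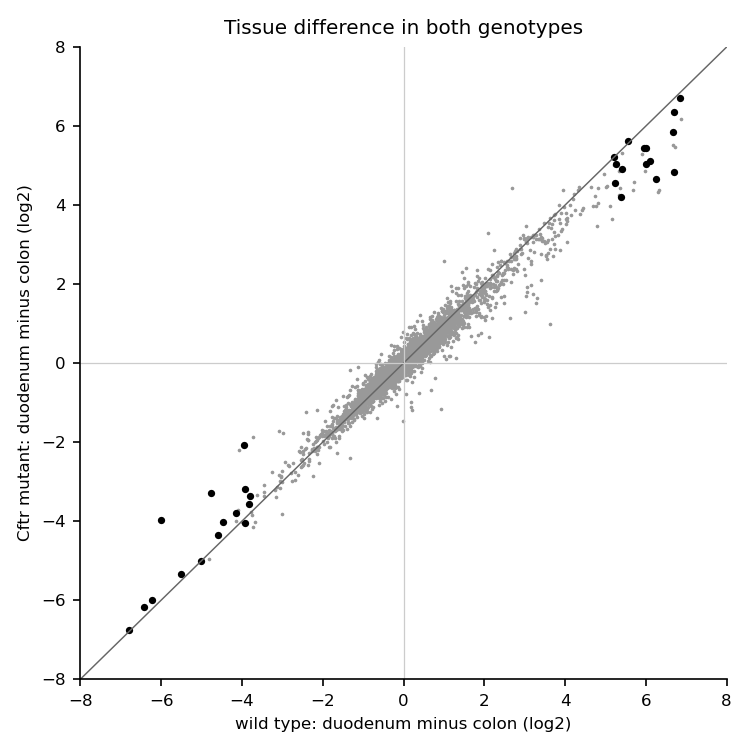
Duodenum minus colon difference on the log2 scale in wild type (horizontal axis) and Cftr mutant (vertical axis) for all 16358 features; black points are the 15 named genes with the largest wild-type difference in each direction, chosen on the horizontal axis, and the diagonal marks equality. They run from Car1 at -6.81 and -6.75 to Apoa4 at 6.85 and 6.70, with Retnlb at -5.99 and -3.98 among those nearer 0 in the mutant.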

How the data were processed

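The authors deposited 1 table of log2 intensities per probe, whose nearly equal distributions over the arrays show that it was normalized between them, and limma is the one tool named in the submitters' processing notes, with no version; no source used here gives the settings. The 12 array columns were matched to samples by title, and 24 further columns with no matching sample were not used. Column medians were 7.76 on every array, so the arrays carry no separate depth, and the number of arrays limits the precision. The mode of all values was 7.70 with an SD below it of 0.0268, which set the dim limit at 3 SD above the mode (7.78). Probes above it on at least 3 arrays were kept (23441 of 45281), and the brightest probe stood for a gene. Of the probes, 34885 had 1 symbol, 18 several and 10378 none, and 34807 matched an Entrez entry of the current RefSeq table. Tissue differences were fitted with limma 3.58.1 in R 4.3.3 over all 12 arrays in 4 groups, with Benjamini-Hochberg adjustment over 16358 features and a threshold of 0.05. The fit had 8 residual and 2.13 prior degrees of freedom. It was tested on simulated data. With 3 arrays a side, the smallest exact permutation p is 0.1.

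The members and gene lists were chosen with earlier results of these data known, so no list is independent evidence. Named genes are the 15 with the largest difference in each direction, up to 6 per direction and up to 3 that did not pass from each list, every measured Hox gene and a fixed set. The genes Cela2a, Reg3b, Scnn1a, Scnn1b, Scnn1g and Slc26a3 were named after their values were seen. Where a gene was dim on every array of a tissue, a lower bound of the fold is given from the lowest measurable signal, as "at least". Upstream windows came from RefSeq (32851 windows, GRCm38.p6) and were searched on both strands. The HNF1 motif was also searched and stood before 0.0111% of all genes with a window and before none of the genes measured. Alternatives covered the dim limit, probe choice, variance prior, array weights, scaling, replicate block and leaving out each array.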

Additional observations from a re-analysis of the deposited data

How the results depend on the processing

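The tissue differences of the genes named in the text were recomputed under the alternatives. A turn in sign was counted only where the main or the recomputed value passed. By that rule, 3903 of 3999 values kept their side of the threshold without a counted turn. The call was lost by 51 (48 of them in the test against a minimum difference of 1) and gained by 27. The other 18 turned in sign, all under the 2 centrings on pan-epithelial genes. Differences that passed in neither fit may have turned uncounted. Centring on these genes gave 13768 higher and 813 lower features in the wild type (14581 in all) and 13180 and 911 in the mutant (14091 in all), and restricted to the 10297 features above the dim limit on all arrays, an alternative chosen after seeing the data, 7852 and 728, and 7252 and 799. The shift of 0.44 also lifts features at the floor. Under the centring, the counted turns in sign were those of Ascl2 (0.355), Cdh1 (0.00300), Epcam (0.427), Hnf4a (0.431), Hoxa13 (0.183), Hoxd13 (0.107), Krt8 (0.0786), Lgr5 (0.346), Muc5ac (0.00979), Plin2 (0.378), Scnn1g (0.297). Against a minimum difference of 1 the counts were 364 and 212 (576 in all) in the wild type and 300 and 182 (482 in all) in the mutant. Leaving out each array gave 2500 to 2945 higher and 3167 to 3785 lower features, in all 5710 to 6730. For the mutant contrast the ranges were 2400 to 2764 higher and 3104 to 3568 lower. The gap between the contrasts passed for 0 to 36 features (0 to 33 higher, 0 to 7 lower) when each array was left out, and for 1, higher, with a trended and robust variance prior. With duodenal arrays 1 and 3 counted as 1, 2542 and 3255 features were called. The replicate numbers did not pair the samples (correlation of same-numbered arrays' deviations -0.01, -0.01 and 0.06 in the wild type), and a fit with the replicate number as a block called 2717 and 3485 features. Centring on the median of bright features called 3832 and 2945. Signal near the floor limits what can be seen: 44.1% to 44.2% of probes on each array were above the dim limit. No slide or scan label was given in the sources used here, so such batches were not tested.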

Other observations

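Further lists hold few measured genes or few calls. Their counts are to be read beside the shares of all features, 17.5% higher in the duodenum and 22.9% in the colon. Of 9 Brunner gland and gastric genes, 3 were higher in the duodenum and 4 in the colon (median -0.10; 5 and 1 after centring on pan-epithelial genes), and Tff2, a trefoil peptide of gastric and Brunner gland mucus, read 7.70, 9.74 and 7.75 in the duodenum and 8.03, 8.12 and 8.81 in the colon, with overlap (adjusted p = 0.932). Muc5ac, the surface mucin of the stomach, was not above background in the duodenum and was at least 1.26-fold higher in the colon (adjusted p = 0.000304), a difference that turned in sign after that centring. Of 9 squamous and anal canal genes, 1 was higher in the duodenum and 2 in the colon (median -0.13; 8 and 0 after centring on pan-epithelial genes). Of 4 ileal markers, 3 were higher in the duodenum and 1 in the colon (median 0.47), and Slc51a, a subunit of the basolateral bile acid exit, differed by 1.05 ± 0.17 (adjusted p = 0.000604).

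Of 27 Reg lectins and defence genes, 3 were higher in the duodenum and 10 in the colon (median -0.02; 16 and 7 after centring on pan-epithelial genes). Of 14 mast cell, eosinophil and neutrophil genes, 3 and 1 were called (median 0.02), of 16 adipocyte and mesothelial genes 5 and 1 (median 0.13), and of 7 erythrocyte genes 0 and 2 (median 0.00; 3 and 1 after centring on pan-epithelial genes). The erythrocyte list includes Car1, described above as a gene of colonocytes, which is 1 of its 2 colonic calls and raises its mean on the colon arrays. Of 21 immediate early genes, whose RNA rises within minutes of handling, 2 were higher in the duodenum and 6 in the colon (median -0.07; 11 and 2 after centring on pan-epithelial genes). Egr1, a zinc finger gene of that class, read 8.96, 8.55 and 9.05 in the duodenum and 9.88, 10.07 and 10.05 in the colon (difference -1.15 ± 0.30, adjusted p = 0.0102), and Zfp36, which destabilizes mRNA, differed by 0.54 ± 0.12 (adjusted p = 0.00499). Handling differed between the preparations, and its part in these genes was not tested.

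Aldh1a1, a retinaldehyde dehydrogenase, differed between the tissues by 1.05 ± 0.12 in the wild type and by 0.10 in the mutant, a gap that did not pass over all features.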
